A study of Mus musculus with 12 samples.

Results

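The genes described here encode clotting factors of blood plasma that hepatocytes make: the factors XII (F12), XI (F11), IX (F9), VII (F7), X (F10) and V (F5), prothrombin (F2), and the alpha, beta and gamma chains of fibrinogen (Fga, Fgb and Fgg). They were chosen by gene symbol, and all 10 of 10 had a probe set, out of 11861 genes measured. Earlier results of these data were known when the list was made. Each symbol had 1 probe set. RNA came from spheroids, the compact aggregates that hepatocytes form when they cannot attach to the plate. The cells were isolated from mice of the inbred strain C57BL/6 with no transgene named in the labels, and 4 preparations were frozen, 2 male and 2 female, each a pool of 3 animals whose age is not given in the sources used here. Spheroids of each preparation (male 1, male 2, female 1 and female 2) were taken 1, 7 and 14 days after formation, which gave 12 arrays in 6 groups of 2. The labels name no added agent in any group and no fresh liver or other culture as a control, so the comparisons set culture days, or males and females, against each other.

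Levels are on the log2 scale, so a difference of 1 is a doubling, and levels of different genes are not set against each other. Array medians lay between 7.47 and 7.53. The labelled cell type was checked with hepatocyte markers, of which 8 of 10 were measured: their mean level lay between 11 and 11.3 at day 1 and between 10.75 and 11.37 at day 14, and 0 of 8 passed the test in either direction. Alb, Apoa1, Ttr and Serpina1a had day means above 12, where the scale is compressed, so their steady level says little about change. Among them Cyp2e1, a cytochrome P450 of hepatocytes near the central vein, was low and varied widely, with 5.57 ± 0.77 on day 1 and 4.41 ± 1.90 on day 14 (SD, n = 4). Bulk RNA cannot tell fewer cells of a type from less RNA per cell.

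Clotting factors circulate as inactive precursors, most of them serine proteases, and activate one another in a cascade. Factor VII with tissue factor starts the extrinsic arm, the factors XII, XI and IX form the intrinsic arm, and both arms activate factor X, which with its cofactor factor V turns prothrombin into thrombin. Thrombin then cuts fibrinogen to fibrin, the mesh of the clot. Factors VII, IX and X and prothrombin need a vitamin K dependent modification to work, and fibrinogen is also an acute phase protein, which the liver makes in larger amounts in inflammation.

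The promoter sequences of F11, the gene that passed the test, and of the 3 fibrinogen genes are shown for the spread of their measured levels. The SD of F11 over the arrays was wider than that of 96.5% of all genes. The fibrinogen genes had some of the smallest SDs, but their levels lie above 12, where the scale is compressed. RefSeq promoters (GRCm38.p6) were matched for all 10 genes. Each sequence gives the 250 bases before the transcription start, 5′ to 3′ on the gene's strand, with matches to 6 motifs in capitals. The windows are chr8:45262032-45262281 on the minus strand for F11, chr3:83025903-83026152 on the plus strand for Fga, chr3:83049864-83050113 on the minus strand for Fgb and chr3:83007474-83007723 on the plus strand for Fgg.
F11: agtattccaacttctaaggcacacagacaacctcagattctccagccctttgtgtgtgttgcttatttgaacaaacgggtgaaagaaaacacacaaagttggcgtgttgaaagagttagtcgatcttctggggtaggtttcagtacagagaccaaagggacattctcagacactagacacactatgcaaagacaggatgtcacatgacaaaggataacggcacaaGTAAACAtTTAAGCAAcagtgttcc
Fga: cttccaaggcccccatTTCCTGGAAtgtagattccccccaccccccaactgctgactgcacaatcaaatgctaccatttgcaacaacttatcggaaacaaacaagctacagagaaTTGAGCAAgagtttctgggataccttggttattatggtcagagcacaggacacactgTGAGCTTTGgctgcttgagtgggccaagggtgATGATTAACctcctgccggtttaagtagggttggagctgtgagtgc
Fgb: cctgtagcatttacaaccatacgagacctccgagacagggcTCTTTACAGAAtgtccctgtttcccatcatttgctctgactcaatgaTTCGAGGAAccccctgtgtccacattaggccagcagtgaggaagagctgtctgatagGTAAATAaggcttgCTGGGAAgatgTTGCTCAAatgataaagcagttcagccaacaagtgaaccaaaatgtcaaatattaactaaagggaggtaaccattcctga
Fgg: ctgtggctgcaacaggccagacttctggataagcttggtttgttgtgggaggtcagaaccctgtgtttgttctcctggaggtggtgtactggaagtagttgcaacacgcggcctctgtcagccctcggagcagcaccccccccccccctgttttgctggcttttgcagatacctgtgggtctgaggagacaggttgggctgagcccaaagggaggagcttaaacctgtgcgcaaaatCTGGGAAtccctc
The last 24 bases of the F11 window, and the last 135 of the F9 window, lie within the span that RefSeq gives the gene. The F7 window lies wholly within the annotated gene, so only its motif match is shown, with 10 bases on each side, at chr8:13025990-13026018 on the plus strand.
F7: ccctccccccTGACCTTTGccctcccggc

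The motifs are those of factors known to act in liver, searched on both strands, and their share is given over the same 250 bases of 32851 RefSeq promoters. The HNF1 motif (GTTAATNAT), present in 0.737% of promoters, was found in Fga at -46 to -38 from the start. The HNF4 motif (CAAAGNNCA, 5.49% of promoters) was found in F7, F9 and Fga, and the C/EBP motif (TTNNGNAA, 36.8%) in F11, F9, Fga and Fgb. The FOXA motif (TNTTTAC, 10.9%) was found in F11, at -25 to -19, and in Fgb, while the STAT motif (TTCNNNGAA, 7.02%) was found in F9, Fga and Fgb. The IL6 type II motif (CTGGGAA, 9.1%), named after the cytokine that induces fibrinogen, was found in F9, Fgb and Fgg, and in F9 it overlapped the STAT match. All matches in F9 lie in the part of its window that is inside the annotated gene. The same holds for the C/EBP match in F11, at -17 to -10, and for most of the FOXA match in F11. In Fgb a FOXA and a C/EBP match also overlapped. The windows of F10, F2, F5 and F12 held no match, and a match is a description of the letters only.

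F11 encodes factor XI, which thrombin or factor XII activates and which in turn activates factor IX. It was the only one of these genes whose level changed over the culture by the test. At day 1 the F11 level was 9.50 in male 1, 9.57 in male 2, 9.82 in female 1 and 9.45 in female 2. At day 7 it was 8.70, 8.83, 9.42 and 8.92 in the same order. At day 14 it was 7.92, 8.23, 8.84 and 7.86. All 4 arrays of day 1 lay above all 4 of day 7 and all 4 of day 14, whereas days 7 and 14 overlapped, because female 1 at day 14 stood above male 1 and male 2 at day 7.

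From day 1 to day 14 F11 fell by 1.37 ± 0.21 on the log2 scale (SE, 4 preparations, limma adjusted p = 0.00431), to a level 2.59-fold lower, with a 95% interval from -1.86 to -0.89. This change ranked 88 from the lowest among 11861 genes. The change was -1.59 in male 1, -1.35 in male 2, -0.97 in female 1 and -1.59 in female 2, so each preparation moved the same way. F11 also stood lower in all 4 preparations over the first and over the second week, by 0.62 ± 0.21 from day 1 to day 7 (adjusted p = 0.154) and by 0.76 ± 0.21 from day 7 to day 14 (adjusted p = 0.169). Neither week passed the test in the model without preparations, and both passed with the replicate block, in which each preparation is compared with itself (adjusted p = 0.0305 and 0.0443). The call for day 14 against day 1 was lost without male 1 (-1.31, adjusted p = 0.0908) and without male 2 (-1.43, adjusted p = 0.0662).

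**Figure D1:**
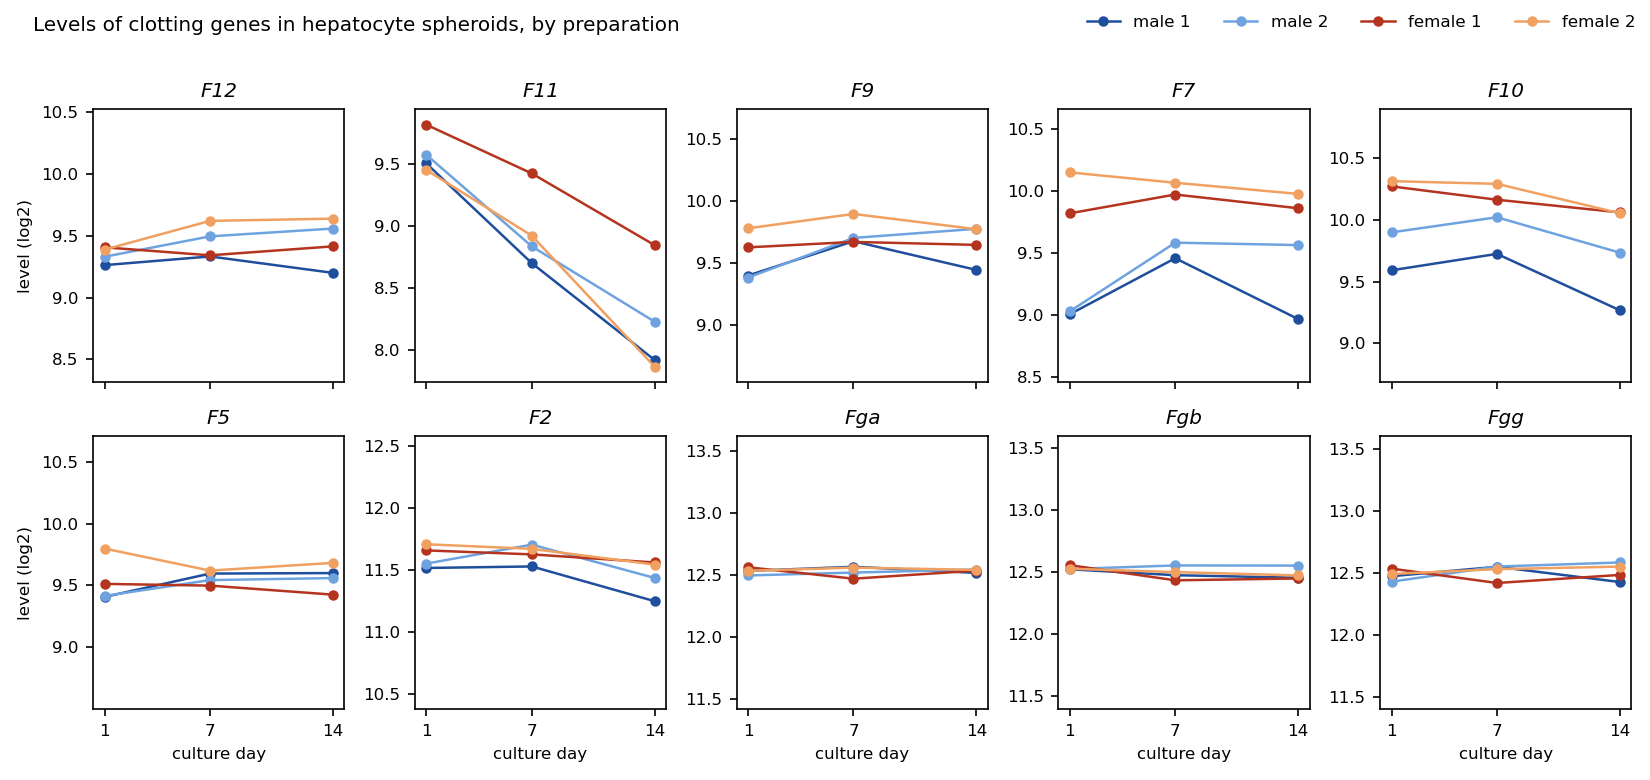
Log2 level (vertical axis) of each clotting gene against culture day (horizontal axis), with 1 line per preparation and panels that span the same number of log2 units around different centres. The F11 lines fall in all 4 preparations, from between 9.45 and 9.82 at day 1 to between 7.86 and 8.84 at day 14, and the fibrinogen lines lie nearly flat.

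Of the 10 genes 0 passed the test from day 1 to day 7, where 4.72% of all genes did, and 0 from day 7 to day 14, against 0.489% of all genes. From day 1 to day 14 the count was 1 of 10, against 14.4% of all genes in either direction and 6.8% that fell. A count of 1 in 10 is near both shares. At an unadjusted p under 0.05 limma gave 1 of 10 for day 7 against day 1 (2315 of all genes), 2 of 10 for day 14 against day 7 (1626) and 2 of 10 for day 14 against day 1 (3398). The median change of the 10 genes from day 1 to day 14 was 0.02, beside 0.01 over all genes. F11 was the 1 member whose arrays at day 14, and at day 7, all lay below those of day 1, a pattern seen in 7.57% and 5.19% of all genes. In each preparation lower at day 7 than at day 1 was 1 of the 10, F11, against 14.1% of all genes. From day 7 to day 14 this held for F11, F2, F7 and F10 (11.3% of all genes), and from day 1 to day 14 for F11, F2 and F10 (16.2%).

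The other factors of the intrinsic arm did not pass in any comparison of days. F12 encodes factor XII, which starts the intrinsic arm on charged surfaces. Its level was 9.26, 9.33 and 9.20 at days 1, 7 and 14 in male 1, and 9.33, 9.49 and 9.56 in male 2. In female 1 it was 9.40, 9.34 and 9.41, and in female 2 it was 9.39, 9.62 and 9.64. The preparations thus went different ways, and day 14 stood 0.11 ± 0.10 above day 1 (adjusted p = 0.562, 95% interval -0.13 to 0.34).

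F9 encodes factor IX, the protease lacking in haemophilia B, which with factor VIII activates factor X. Its level in male 1 was 9.40, 9.68 and 9.45 at days 1, 7 and 14, and in male 2 it was 9.39, 9.71 and 9.78. In female 1 it was 9.63, 9.67 and 9.65, and in female 2 it was 9.78, 9.90 and 9.78. F9 was higher at day 7 than at day 1 in all 4 preparations, by more in the males (0.28 and 0.32) than in the females (0.04 and 0.12). The mean difference was 0.19 ± 0.09 (adjusted p = 0.295), and the difference in this change between the sexes, 0.22 ± 0.18, did not pass either (adjusted p = 0.990). By day 14 the mean stood 0.11 ± 0.09 above day 1 (adjusted p = 0.469).

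Prothrombin and factor X stood somewhat lower at day 14. F2, the gene of prothrombin, was at 11.52, 11.53 and 11.25 in male 1 over the 3 days, and at 11.55, 11.71 and 11.44 in male 2. In female 1 it was at 11.66, 11.63 and 11.56, and in female 2 at 11.71, 11.67 and 11.54. Day 14 was the lowest day in every preparation. F2 stood 0.16 ± 0.07 lower at day 14 than at day 1 (adjusted p = 0.148) and 0.19 ± 0.07 lower than at day 7 (adjusted p = 0.258), which did not pass the test. With a trended and robust estimate of the spread both passed (adjusted p = 0.0233 and 0.0447).

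F10 encodes factor X, at which the 2 arms meet. Its level was 9.59, 9.72 and 9.27 in male 1 over the 3 days, and 9.90, 10.02 and 9.73 in male 2. In female 1 it was 10.27, 10.16 and 10.06, and in female 2 it was 10.31, 10.29 and 10.05. Here too day 14 was the lowest in all 4 preparations, with -0.24 ± 0.12 against day 1 (adjusted p = 0.234) and -0.27 ± 0.12 against day 7 (adjusted p = 0.370). Against day 1 the change was -0.32 in male 1, -0.16 in male 2, -0.21 in female 1 and -0.26 in female 2. In 6 alternative limma fits on all arrays its adjusted p lay between 0.0501 and 0.257, and 0 passed. The SE of the main fit includes the spread between preparations of the same sex, so these values do not show that F10 was steady.

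F7 and F5 did not pass in any comparison of days. F7, the gene of factor VII, was at 9.004, 9.46 and 8.96 in male 1 and at 9.03, 9.58 and 9.56 in male 2. In female 1 it was at 9.82, 9.97 and 9.86, and in female 2 at 10.15, 10.06 and 9.97. Male 2 kept at day 14 the level it had at day 7, whereas male 1 was back near its level of day 1. Day 7 against day 1 gave 0.27 ± 0.13 (adjusted p = 0.303) and day 14 against day 1 gave 0.09 ± 0.13 (adjusted p = 0.710). Day 14 lay below day 7 in all 4 preparations, with a mean of -0.18 ± 0.13 (adjusted p = 0.619).

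F5 encodes factor V, the cofactor of factor X. Its level was 9.41, 9.60 and 9.60 in male 1, and 9.42, 9.54 and 9.56 in male 2. In female 1 it was 9.51, 9.50 and 9.43, and in female 2 it was 9.80, 9.62 and 9.68. Both males stood higher at day 14 than at day 1, by 0.19 and 0.14, and both females lower (-0.09 and -0.12). The mean change was 0.03 ± 0.08 (adjusted p = 0.843), and the difference in change between the sexes, 0.27 ± 0.17, did not pass (adjusted p = 0.881).

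The 3 fibrinogen genes had levels above 12, where differences appear smaller than they are, and of all 11861 genes 55 had a mean there. Fga varied between 12.47 and 12.57 over the 12 arrays, Fgb between 12.43 and 12.55, and Fgg between 12.42 and 12.58. From day 1 to day 14 Fga changed by 0.003 ± 0.05 (adjusted p = 0.977), Fgb by -0.05 ± 0.05 (adjusted p = 0.602) and Fgg by 0.03 ± 0.06 (adjusted p = 0.807), none of which passed. The 95% intervals were -0.11 to 0.12 for Fga, -0.17 to 0.07 for Fgb and -0.11 to 0.17 for Fgg. Female 1 had the lowest value at day 7 for each chain, 12.47 for Fga, 12.43 for Fgb and 12.42 for Fgg. The 3 genes lie side by side on chromosome 3, with 11.1 kb between Fgg and Fga and 8.62 kb between Fga and Fgb.

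**Figure D2:**
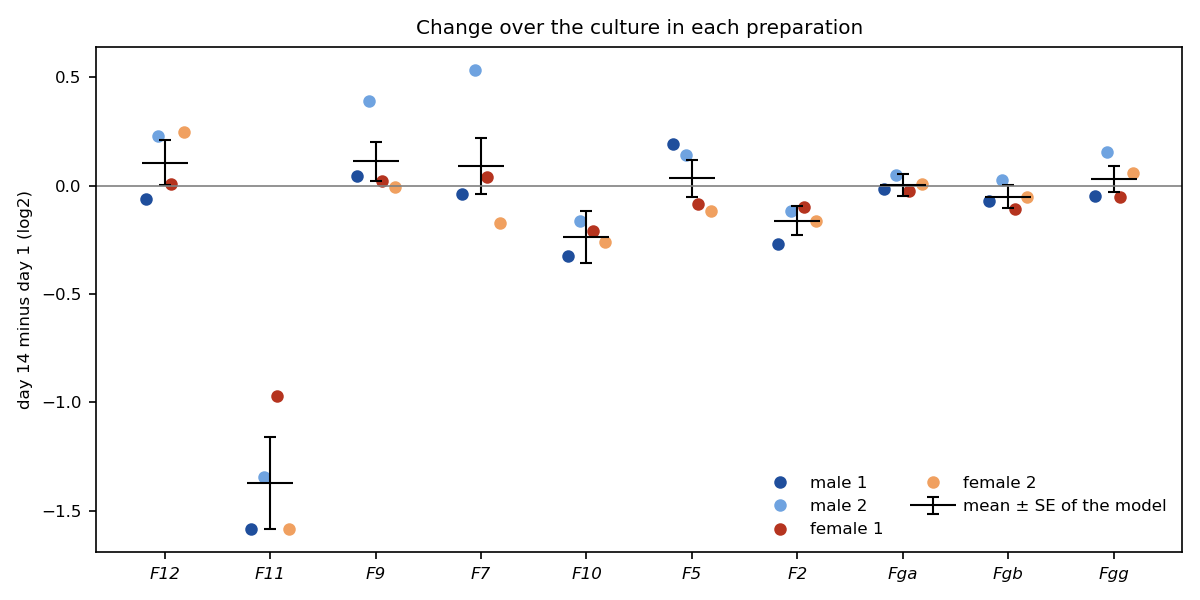
Change from day 1 to day 14 (log2, vertical axis) of each clotting gene, with 1 point per preparation, a bar at the mean and whiskers of 1 SE of the model. The F11 points lie between -1.59 and -0.97, and those of the other genes between -0.32 and 0.53.

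The genes differed in what their variation over the 12 arrays followed, here split into shares of the sum of squares for preparation, for day and for the rest. For F11 day took 79.3% and preparation 17.1%. For F7 and F10 preparation took 81.4% and 80.7%, and day 7.41% and 15.7%. For F2 the shares were close, with 42.4% for preparation and 44% for day. F5, F12 and F9 had most in preparation, with 60.8%, 62.4% and 50.9%. For Fga and Fgg most was in neither, with 83.9% and 78.2% in the rest, and Fgb divided into 36.6%, 27.8% and 35.6%. The SD of F11 over the arrays was wider than that of 96.5% of all genes, that of F7 wider than 90.6% and that of F10 wider than 82%. F9, F12, F2 and F5 lay at 46%, 35.4%, 31.6% and 23.8%, and Fgg, Fgb and Fga at 1.8%, 0.481% and 0.0674%, in the compressed range.

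F7 and F10 were higher in the female preparations, although neither passed the test. The F7 level averaged over days was 9.14 in male 1, 9.39 in male 2, 9.88 in female 1 and 10.06 in female 2. The F10 level was 9.53, 9.88, 10.16 and 10.22 in the same order. For both genes all 6 female arrays lay above all 6 male arrays, whatever the day, which held for these 2 of the 10 genes and for 1.48% of all genes. F7 was 0.71 ± 0.12 lower in males over all days, or 1.63-fold (2 against 2 preparations, adjusted p = 0.0919), and F10 was 0.48 ± 0.13 lower (adjusted p = 0.173). With the replicate block, here all 12 arrays with preparation as a random block, both passed (adjusted p = 0.00942 for F7 and 0.0246 for F10). That fit takes the same correlation within preparations for all genes, and sex differs only between preparations. Its p-values may thus be too small for genes that vary mostly by preparation, as F7 and F10 did. F7 also passed with a trended and robust spread (adjusted p = 0.0107) and among genes with a mean of at least 6 (adjusted p = 0.0385). Of all 11861 genes 929 passed with the block and 974 with the trended spread, against 21 in the main model. Among genes with a mean of at least 6, 282 of 8910 did. With 1 preparation left out, male minus female lay between -0.83 and -0.58 for F7 and between -0.66 and -0.31 for F10.

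The difference in F7 was 0.97 ± 0.18 at day 1 (1.96-fold, adjusted p = 0.0586), 0.50 ± 0.18 at day 7 (adjusted p = 0.306) and 0.65 ± 0.18 at day 14 (adjusted p = 0.140), each with the males lower. At day 1 it passed with a trended and robust spread (adjusted p = 0.0199) and among genes with a mean of at least 6 (adjusted p = 0.0271). F10 was lower in males by 0.54 ± 0.17, 0.35 ± 0.17 and 0.55 ± 0.17 at the 3 days (adjusted p = 0.212, 0.420 and 0.177). F7 and F10 are neighbours on chromosome 8, with 1.5 kb between them. Proz, the gene of protein Z, a cofactor of the inhibition of factor X, follows after 3.91 kb and was 0.21 ± 0.10 lower in males over all days (adjusted p = 0.346). It was chosen for its place, after its values had been seen.

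In the main model, without the alternatives just given, 0 of the 10 genes passed between the sexes at any day or over all days. The share of all genes that passed was 0.767% at day 1, 0.354% at day 7, 1.06% at day 14 and 0.177% over all days. At an unadjusted p under 0.05 limma gave 3 members at day 1 (1602 of all genes), 1 at day 7 (1570), 2 at day 14 (1762) and 2 over all days (2344). For the difference between the sexes in the change over culture, 0 members and 0% of all genes passed, both for day 7 against day 1 and for day 14 against day 1. At an unadjusted p under 0.05 limma gave 0 members in each, beside 565 and 815 of all genes.

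At day 1 both female preparations lay above both male ones for 9 of the 10 genes, F11 being the exception, against 20.1% of all genes. For Fga, Fgb and Fgg, in the compressed range, the gap between the highest male and the lowest female was small. It lay between 12.5328 and 12.5337 for Fga, 12.5207 and 12.5233 for Fgb, and 12.4739 and 12.4919 for Fgg. The genes come from the same 4 arrays and are not independent of each other. At day 7 this held for 3, namely F11, F7 and F10 (21.7% of all genes), and at day 14 for 3, namely F2, F7 and F10 (20.7%). The median of male minus female at day 1 was -0.12 over the 10 genes and 0.02 over all genes. The 8 hepatocyte markers measured were all lower in males at day 1 as well, with a median of -0.07. At day 14 the median was -0.12 for the 10 genes and -0.08 for the hepatocyte markers. The stellate cell markers differed by a median of 0.08 at day 1, with 5 of 11 lower in males, by -0.36 at day 7 and by -2.22 at day 14. The endothelial markers differed by a median of -0.27, -0.67 and -0.96 at the 3 days, with 8 of 8 lower in males at day 1. Their part in the values of F7 and F10 was not tested.

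**Figure D3:**
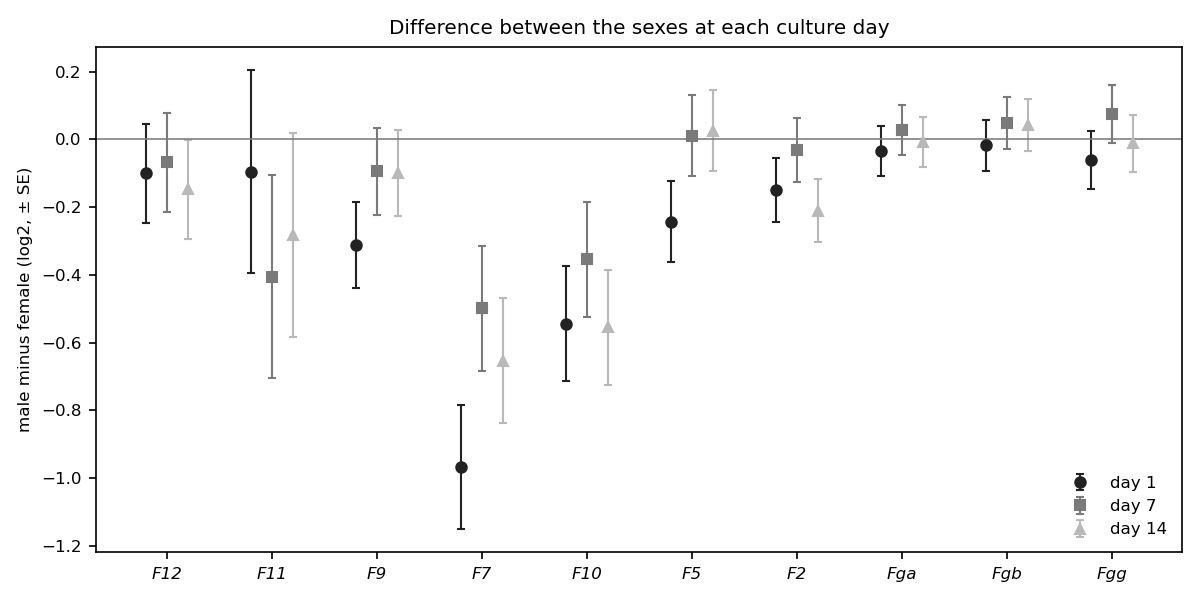
Male minus female difference (log2, vertical axis, whiskers of 1 SE) of each clotting gene at days 1, 7 and 14. F7 lies between -0.97 and -0.50 and F10 between -0.55 and -0.35, below 0 at each day, and the fibrinogen genes lie within 0.08 of 0.

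Other genes of the clotting system, which were listed by role, moved in both directions over the culture. Over all 11861 genes 900 rose and 806 fell from day 1 to day 14. In the contact system and among cofactors 0 of 5 measured genes (of 7 listed) passed from day 1 to day 14, with a median of 0.11. The gene with the largest difference there was F13a1, the catalytic chain of factor XIII, which cross-links fibrin and which macrophages also make. Its mean was 3.99 ± 0.39 on day 1 and 4.81 ± 0.76 on day 14 (SD, n = 4), and the difference did not pass (adjusted p = 0.137). All 4 arrays of day 1 lay under 4.79, a level that every probe set reached on at least 1 array, so no size is given for it. In macrophage markers 1 of 11 rose and 0 fell, with a median of 1.11, and their mean level went from between 4.13 and 5.44 to between 5.13 and 7.24. Of these markers 5 had a mean under 4.79 at day 1 and 2 at day 14. Their part in F13a1 was not tested. Klkb1, the prekallikrein gene that lies 4.63 kb from F11, had no probe set value here.

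Of 10 measured anticoagulant genes 2 rose and 1 fell from day 1 to day 14, with a median of 0.02. Serpina10, the inhibitor of factor X that works with protein Z, rose from 10.48 ± 0.15 to 11.05 ± 0.19 (SD, n = 4), by 0.57 ± 0.12 (adjusted p = 0.0172). Thbd, thrombomodulin, the thrombin receptor of endothelium, rose by 0.57 ± 0.13 (adjusted p = 0.0199), although in male 1 it was 0.25 lower. Pros1, protein S, the cofactor of activated protein C, fell by 0.30 ± 0.07 (adjusted p = 0.0195). Among 8 fibrinolysis genes 2 rose and 0 fell, with a median of 0.14. These were Habp2, a plasma protease, by 0.60 ± 0.09 (adjusted p = 0.00321), and Plaur, the urokinase receptor, by 0.53 ± 0.08 (adjusted p = 0.00437).

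Of 9 genes of the vitamin K cycle and of factor secretion 1 rose and 2 fell, with a median of -0.01. Nqo1, a quinone reductase, rose by 0.61 ± 0.09 (adjusted p = 0.00434), Aifm2, which reduces vitamin K, fell by 0.42 ± 0.09 (adjusted p = 0.0165), and Mcfd2, part of the receptor that carries factors V and VIII out of the endoplasmic reticulum, fell by 0.25 ± 0.06 (adjusted p = 0.0215). Of 5 receptor and initiator genes 3 rose and 0 fell, with a median of 0.33. F3, tissue factor, the partner of factor VII, rose from 5.65 ± 0.50 to 6.78 ± 0.47 (SD, n = 4), by 1.13 ± 0.16 (adjusted p = 0.00305), and the rise lay between 0.96 (male 1) and 1.25 (female 1). Asgr2, a subunit of the receptor that clears glycoproteins from plasma, rose by 0.46 ± 0.11 (adjusted p = 0.0226), and F2r, a thrombin receptor, by 0.33 ± 0.07 (adjusted p = 0.0145).

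Among 21 regulators of these genes 2 rose and 2 fell, with a median of -0.10. The clock output factor Dbp rose by 0.69 ± 0.15 (adjusted p = 0.0160) and the fatty acid receptor Ppara by 0.49 ± 0.11 (adjusted p = 0.0230). Stat5b, which carries the growth hormone signal, fell by 0.36 ± 0.08 (adjusted p = 0.0195) and Foxa2, a liver pioneer factor, by 0.34 ± 0.08 (adjusted p = 0.0204). Among 20 other acute phase genes, the group to which fibrinogen belongs, 10 rose and 1 fell, with a median of 0.26. The rise was 2.47 ± 0.43 for Saa2, 1.93 ± 0.32 for Saa1 and 1.66 ± 0.30 for Saa3, which encode serum amyloid A proteins, and 1.36 ± 0.24 for the orosomucoid gene Orm3 (adjusted p = 0.00739, 0.00604, 0.00833 and 0.00770). Their near-identical copies may share signal. Hp, Hpx, Lcn2, Cp and Serpina3n of this list had day 1 means above 12, as fibrinogen did. In that compressed range they went from 12.67 to 12.71, 12.62 to 12.63, 12.60 to 12.67, 12.16 to 12.20 and 12.32 to 12.35 by day 14.

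In the first week, day 7 against day 1, 6 genes of these lists passed, where 4.72% of all genes did. Among 10 anticoagulant genes 1 rose and 1 fell, and among 8 fibrinolysis genes 2 rose. Among 20 other acute phase genes 1 rose and 1 fell. In the contact system, vitamin K, receptor and regulator lists 0 of 5, 9, 5 and 21 passed. Thbd (0.57), Habp2 (0.44), Plaur (0.36) and Crp, the C-reactive protein gene (0.52), rose, and Pros1 (-0.31) and the protease inhibitor gene A2m (-2.14) fell. In the second week A2m (1.11) and Orm3 (1.62) rose, and no other listed gene passed, where 0.489% of all genes did.

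With 1 preparation left out, each of the rises and falls named here from day 1 to day 14 missed the threshold at least once. Habp2 did so without male 2 (adjusted p = 0.0629) and Nqo1 without male 1 (0.0554). F3 did so without male 1 (0.0564) or male 2 (0.0646), as did Plaur (0.0892 and 0.0615), Dbp (0.169 and 0.0831), Serpina10 (0.190 and 0.133), Saa1 (0.0871 and 0.0803), Saa2 (0.0942 and 0.105), Saa3 (0.0925 and 0.126) and Orm3 (0.119 and 0.105). Thbd, F2r and Foxa2 missed it without male 1, male 2 or female 1 (up to 0.203, 0.158 and 0.18), and Aifm2 and Ppara without male 1, male 2 or female 2 (up to 0.181 and 0.178). Pros1, Asgr2, Mcfd2 and Stat5b missed it without any 1 of the 4 (up to 0.202, 0.157, 0.236 and 0.2). All kept their direction in these fits.

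**Figure D4:**
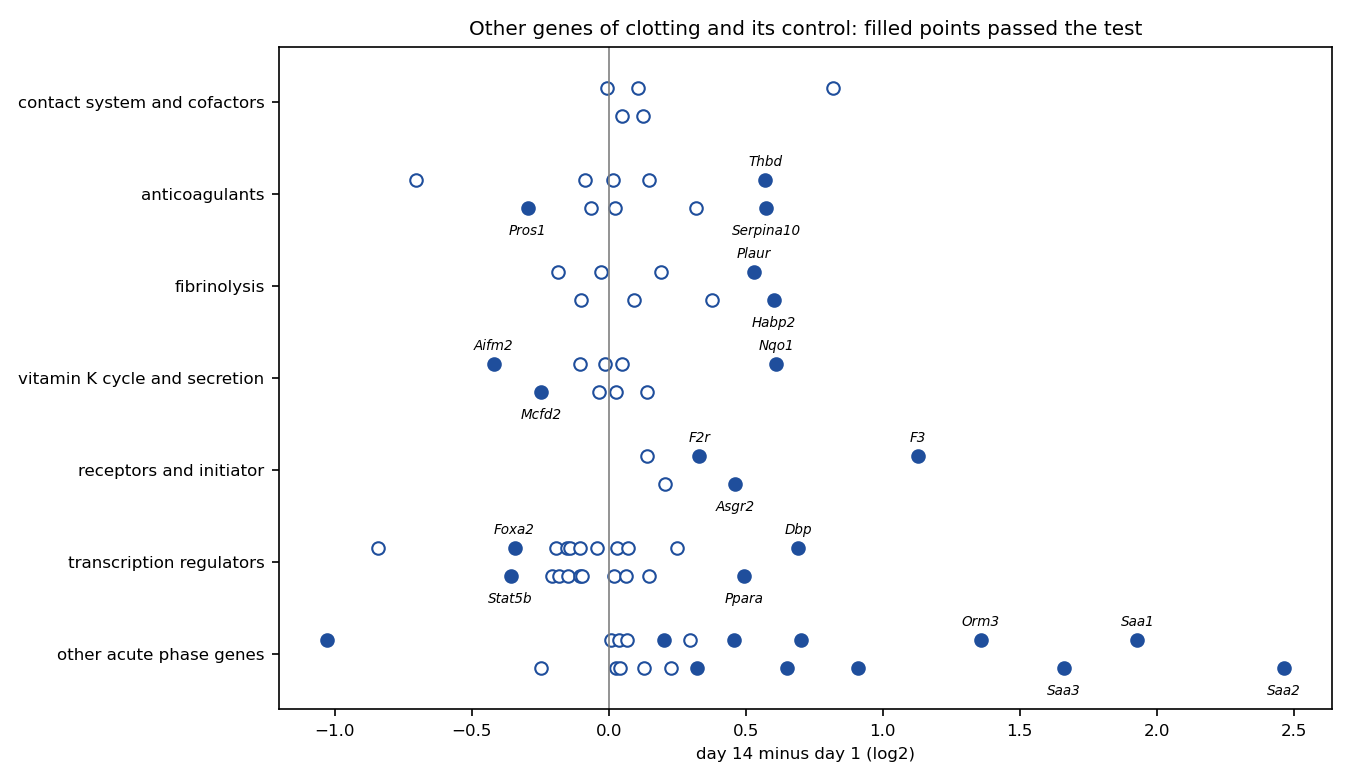
Change from day 1 to day 14 (log2, horizontal axis) of other genes of clotting and its control, with 1 row per list and 1 point per gene, filled where the adjusted p was under 0.05 and named by the rule. F3 stands at 1.13 among receptors and initiator, and the acute phase genes spread from -1.03 (A2m) to 2.47 (Saa2).

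Genes of other liver cell types moved over the same days as F11. Of 11 stellate cell and fibroblast markers 7 fell and 0 rose from day 1 to day 14, with a median of -1.46, and their mean level went from between 7.20 and 7.44 over the preparations to between 4.35 and 6.90. Of 8 endothelial markers 5 fell and 0 rose, with a median of -1.58, from between 5.39 and 6.17 to between 3.78 and 5.23. At day 14, 6 of the 8 had a mean under 4.79. Platelet markers, of which 4 of 10 were measured, lay between 5.21 and 5.48 at day 1 and between 5.29 and 5.36 at day 14, with 0 passing. Of 4 measured cholangiocyte markers 2 rose and 0 fell by the test. The 2 that rose, Krt19 and Epcam, had day 1 means of 4.39 and 3.43, under 4.79. Krt7 (9.32 to 8.76) and Sox9 (9.79 to 9.57) stood lower at day 14 in all 4 preparations without passing. Of 9 neutrophil and erythroid markers 0 were measured. The part of any of these in the fall of F11 was not tested.

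The 3 genes whose levels followed F11 most closely over the 12 arrays, by Pearson correlation, were Oxnad1 (r = 0.966), Rgs5, a regulator of G protein signalling (r = 0.961), and Bsg, the membrane protein basigin (r = 0.955). The arrays share 4 preparations and 3 days, so the correlations are a description. Oxnad1 stood at 9.96 ± 0.08, 9.76 ± 0.04 and 9.59 ± 0.15 at days 1, 7 and 14 (SD, n = 4). Rgs5 stood at 6.23 ± 0.28, 5.34 ± 0.62 and 4.46 ± 0.55, under 4.79 at day 14, and Bsg at 12.62 ± 0.007, 12.46 ± 0.05 and 12.36 ± 0.11, in the compressed range. Against day 1, at day 14 Rgs5 fell by 1.77 ± 0.24, Oxnad1 by 0.37 ± 0.08 and Bsg by 0.26 ± 0.07 (adjusted p = 0.00222, 0.0176 and 0.0368). F11 itself fell by 1.37, from a day mean of 9.59 ± 0.16 through 8.97 ± 0.32 to 8.21 ± 0.45.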

How the data were processed

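Biotin-labelled cDNA from total RNA was read on 12 expression arrays, and groups were taken from the labels. The deposited values are log2 levels. RMA, Transcriptome Analysis Console 4.0 and Partek 7.0 are named in the submitters' processing notes, without their roles. Background correction and normalization were taken as deposited, and scanner files were not used here. Each of the 13081 probe sets reached at least 4.79 on some array, which all 10 clotting genes passed on every array. The highest value was 12.84.

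In the platform annotation 11889 probe sets carried 1 symbol, 0 carried several, and 1192 were unnamed. Where several shared a symbol (19 symbols), the highest mean decided, leaving 11861 genes. Coordinates and promoters are RefSeq's (GRCm38.p6), and the build of the probe sets is not given in the sources used here.

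Tests used limma 3.58.1 in R 4.3.3 (package data.table, version 1.17.8): a mean for each of 6 groups of sex and day, with day changes averaged over the sexes, and for sex over all days 1 mean per preparation. Tests were two-sided, with p adjusted over all genes (Benjamini-Hochberg) and a threshold of 0.05. The script was tested on simulated data. Each ± on a change is the SE of the model and on a level the SD between preparations. The median SE was 0.0946 for day 14 against day 1, and the number of arrays limits the precision. Since preparations are pools, the spread behind each p-value is that of pools and not of single mice.

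Donor numbers pair the samples, since the labels give the same preparation at each day. Deviations of same-numbered samples from their group means correlated across genes at 0.104, 0.224 and 0.0359 in males and 0.0777, 0.324 and 0.0657 in females (days 1 and 7, 7 and 14, 1 and 14). The main fit of the days leaves this pairing out, so its SE includes the spread between preparations of the same sex. With the replicate block, values are given where it changed a call.

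Alternatives were the replicate block, a trended and robust spread, centring, a second quantile normalization, a mean of at least 6, all probe sets, and each preparation or array left out. The members and gene lists were chosen with earlier results of these data known. All 10 members are named, with up to 4 genes per list of those that passed in a comparison of days (the largest changes from day 1 to day 14), or the 1 largest where none did, and the 3 genes most correlated with a member that passed. Crp and A2m were added after their values were seen. No date of scan or other batch was given in the sources used here.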

Additional observations from a re-analysis of the deposited data

Results flagged for a closer look

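For 3 genes the males and the females moved in opposite directions, in both preparations of each sex. F5 was higher at day 7 than at day 1 in both males (0.19 and 0.13) and lower in both females (-0.01 and -0.18), a difference in change between the sexes of 0.254 ± 0.17 (adjusted p = 0.990). From day 1 to day 14 the difference in F5 was 0.269 (adjusted p = 0.881). For F2 it was 0.117 from day 1 to day 7 (adjusted p = 0.990) and for F10 it was 0.192 (adjusted p = 0.990), with the males higher and the females lower at day 7. None of these 4 differences passed limma's test of the difference itself, and 0 of all 11861 genes did in either comparison. The F2 changes lay near 0 in male 1 (0.01) and in the females (-0.03 and -0.04), with 0.15 in male 2. How many of all genes move in opposite directions in this way was not counted, so no result is read from the count of 3.

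In 5 cases 1 preparation stood apart from the other 3, by a gap that made up most of the range. F9 at day 7 stood at 9.90 in female 2 and between 9.67 and 9.71 in the others (gap over range 0.858), and its change from day 1 to day 14 was 0.39 in male 2 and between -0.01 and 0.05 in the others (0.869). The change of Fga from day 1 to day 7 was -0.09 in female 1 and between 0.02 and 0.03 in the others (0.919). Fgb at day 1 stood at 12.55 in female 1 and at 12.52 in the others (0.859), and Fgg at day 7 at 12.42 in female 1 and between 12.53 and 12.55 in the others (0.841). The cases of Fga, Fgb and Fgg lie above 12, where the scale is compressed. Chance alone marks about 1 in 20 groups in this way, and the number of groups examined is not given here.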

How the results depend on the processing

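The fall of F11 from day 1 to day 14 passed in all 6 alternative fits on all 12 arrays (adjusted p from 0.00104 to 0.00881) and with any 1 array left out (-1.62 to -1.13), and was lost without male 1 or male 2. The count of clotting genes that passed from day 1 to day 14 was 0 to 1 with 1 preparation left out, a fit in which the lone array of a group is assumed to vary like the others. With the replicate block 1 gene passed from day 1 to day 7 and 1 from day 7 to day 14, F11 in both. Between the sexes over all days 2 passed with it, F7 and F10, with the limit given above for that fit. The block changed no other call of these genes. With a trended and robust spread 1 gene passed from day 7 to day 14 (F2), 2 from day 1 to day 14 (F11 and F2), and 1 between the sexes at day 1 and over all days (F7). Among genes with a mean of at least 6, F7 was the 1 that passed at day 1 and over all days, with 8910 genes tested. Small differences that passed no test changed sign: from day 1 to day 14 with centred arrays Fga (-0.00382). From day 7 to day 14, F12 (-0.00043), F5 (-0.00317) and Fga (-5.5e-05) did so with centred arrays, and Fga (-0.00444) and Fgg (0.0118) after a second quantile normalization. Also after it, Fga from day 1 to day 7 (0.0194) and Fga between the sexes over all days (0.00604), and with centred arrays Fgg between the sexes over all days (-0.0204). Their cause was not tested. With a preparation or an array left out, values crossed 0 from day 1 to day 7 for F10 (-0.0452 to 0.108), F2 (-0.0200 to 0.0681), F5 (-0.0402 to 0.102), Fga (-0.0320 to 0.0271) and Fgg (-0.00855 to 0.0687). From day 7 to day 14 they did so for F12 (-0.0841 to 0.0945), F5 (-0.0616 to 0.0666), F9 (-0.159 to 0.00660), Fga (-0.0168 to 0.0280), Fgb (-0.0331 to 0.0160) and Fgg (-0.0405 to 0.0384). From day 1 to day 14 they did so for F5 (-0.0378 to 0.105), F7 (-0.0587 to 0.240), Fga (-0.0129 to 0.0192) and Fgg (-0.0215 to 0.0795). Between the sexes over all days they did so for F11 (-0.569 to 0.0473), F5 (-0.1796 to 0.0412), Fga (-0.0155 to 0.00673), Fgb (-0.00587 to 0.0538) and Fgg (-0.0219 to 0.0234). Over all genes the trended and robust spread moved the counts that passed from 560 to 956 (day 7 against day 1), from 58 to 309 (day 14 against day 7), from 91 to 292, 42 to 178 and 126 to 411 (sexes at days 1, 7 and 14) and from 21 to 974 (sexes over all days). The replicate block moved 58 to 101 and 21 to 929, and the mean of at least 6 moved 58 to 103, 42 to 70 and 21 to 282. For the difference between the sexes in the change to day 14 the count went from 0 to 1 with the block and 14 with the trended spread. Without 1 preparation the counts were 40 to 75 (day 7 against day 1), 0 to 8 (day 14 against day 7) and 494 to 826 (day 14 against day 1). The fibrinogen genes, Bsg and some hepatocyte markers lie where the scale is compressed, which limits how large a change can show.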
